A study of Mus musculus with 4 samples.

Results

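The genes described are those of blood clotting and of clot breakdown: the fibrinogen chains, the clotting factors, their receptors and inhibitors, and the plasminogen system, with Von Willebrand factor left out. They were chosen by name, as 36 listed genes, from the gene names that the array files give for their non-control probes. All 36 had a probe, 50 probes in all. Of these probes 43 gave enough signal to be kept, and 33 of the 36 genes could be tested, among 17628 genes tested on the arrays. F7, F11 and F2rl2 could not. Kidney RNA of 4 Th3 and 4 control samples was compared in pairs on 4 two-colour oligonucleotide arrays, 1 sample of each kind on an array. Th3 mice model beta-thalassemia, an inherited anaemia, and carry a deletion of the adult beta-globin genes beta-major and beta-minor. The label of the other group is control, with no further genotype. Age, sex, background strain, and whether 1 or both chromosomes carried the deletion are not given in the labels used here. Nor do the labels name the animal behind each sample, so the spread on which the p-values rest may be technical.

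Clotting is a cascade of proteases. Tissue factor on cells outside the vessel binds factor VII and activates factor X, which with its cofactor, factor V, turns prothrombin into thrombin. Thrombin cuts fibrinogen, a protein of paired alpha, beta and gamma chains, into fibrin, and factor XIII cross-links the strands. Antithrombin, tissue factor pathway inhibitor and the protein C system hold the cascade back, and plasmin, made from plasminogen by its activators, dissolves the clot. Most of the plasma factors are made in the liver, while kidney tubules, glomerular cells and vessel walls make tissue factor, urokinase and several of the receptors and inhibitors. Fibrinogen chains are also known to be made by epithelial cells outside the liver, kidney tubules among them, after injury.

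Each probe gave 1 log2 ratio per array, Th3 over control, and a gene was read from its brightest kept probe. On arrays 1 and 2 the dye of the Th3 sample was Cy5, and on arrays 3 and 4 it was Cy3. A gene was called higher or lower at a Benjamini-Hochberg adjusted p under 0.05 in limma's test with a dye term. Because the dyes were swapped between pairs of arrays, dye and pair of samples cannot be told apart. The dye term takes up any difference between the pairs of arrays. The p-values therefore rest on the spread between arrays of the same dye orientation, not on that between all 4 arrays. A fit with the pair as a random block, in place of the dye term, was the strictest alternative. Where 1 array was left out, the dye term fitted the remaining array of that dye orientation exactly. The p-value of such a fit then rests on the gap between the 2 arrays of the other orientation. Calls gained or lost by leaving out an array share this limit. In each channel 62.4% to 72.7% of all probes stood well above background, with 0 saturated spots. Of the kidney markers listed, all 7 proximal tubule genes, all 6 of the thick ascending limb and collecting duct and all 6 podocyte genes were measured. So were 10 of 11 hepatocyte genes and all 6 fat genes listed, so being measured does not check the kidney label. In whole tissue, fewer cells of a type and less RNA per cell cannot be told apart.

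RNA of all 3 fibrinogen chains and of both factor XIII subunits was higher in Th3 kidney than in control kidney. So was that of the thrombin receptor F2r, of Tfpi, Plg, Plat and F12. The plasmin inhibitor Serpinf2 stood at 53.1% of control, and F5, Proc and Serpine2 were also lower. Tissue factor, urokinase, thrombomodulin and the vitamin K enzymes did not pass the test. Of the 33 tested genes, 10 were thus higher and 4 lower in Th3 kidney, and 19 did not pass. Among all genes tested 21.5% were called, 10.9% as higher and 10.6% as lower, against 42.4% of these 33. The list was chosen with earlier results of these data known, so the comparison of shares is not an independent test. The median log2 ratio of the 33 genes was 0.13, beside a median near 0 over all genes (0.0013). Their medians on arrays 1 to 4 were 0.24, 0.09, 0.15 and 0.04. On every array 12 of the genes were higher and 4 lower, where the shares over all genes were 19.7% and 17.4%. For 10 the normalised levels of the Th3 samples did not overlap those of the controls, as they did not for 21% of all genes. Of the 33, only Fgg and Fgb were called with at least a 2-fold change, as were 0.567% of all genes. Plg and F12 were kept through the Th3 channel only, where they were the higher. The other 31 tested genes were well above background in both channels of every array. When that was required of all genes, 12 of the 31 were called, 8 higher and 4 lower, beside 22.2% of all genes. The dye term passed for none of the 33 in limma's fit, with a smallest adjusted p of 0.0912 for Procr. With the pair of arrays as a random block 4 genes were higher and 1 lower, when 6.8% of all genes were called. Those 5 were Fgg, Fgb, F2r, Tfpi and Serpinf2. Without array 3 the count of higher genes was 6.

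**Figure D1:**
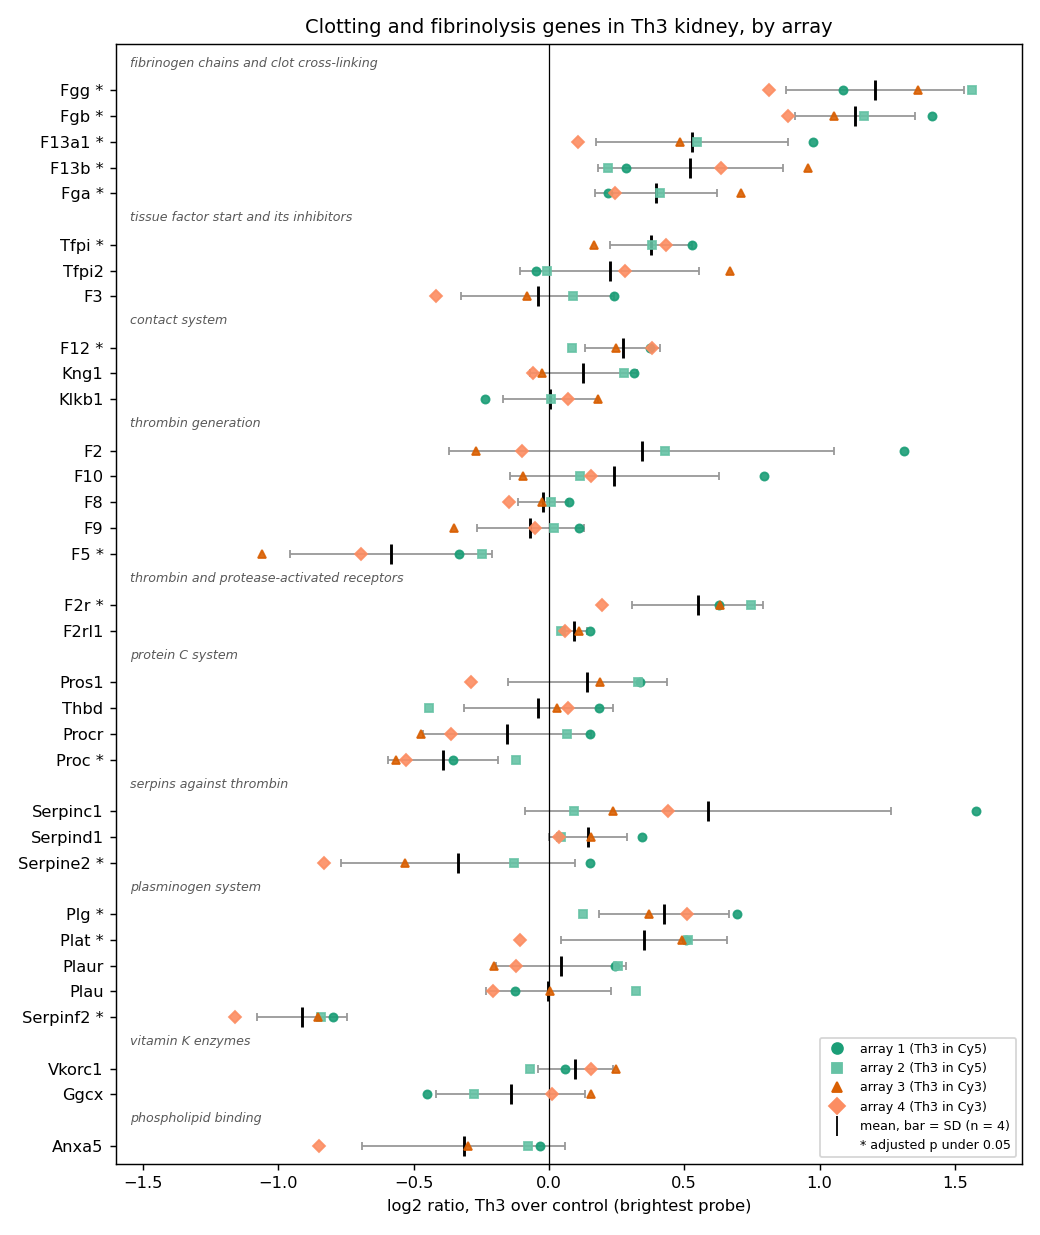
Log2 ratio of Th3 over control (horizontal axis) on each of the 4 arrays for the 33 tested clotting and fibrinolysis genes, grouped by role. Each symbol is an array, green where the Th3 sample was in Cy5 and orange where it was in Cy3, the black tick is the mean and the grey bar the SD (n = 4), and an asterisk marks an adjusted p under 0.05. The 5 genes of the fibrinogen and cross-linking group all lie above 0 on every array, and Serpinf2 lies between -0.80 and -1.16.

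The fibrinogen chains are shown first, since the largest increases were theirs. Their genes form a cluster on mouse chromosome 3, where the array's probes lie within 27.6 kb of build mm8. Liver fibrinogen is known to rise in the acute phase response through interleukin-6, and its promoters are known targets of hepatocyte nuclear factor 1. For this reason the 250 bases before the annotated start of each gene are printed below, from RefSeq on build GRCm38.p6, 5′ to 3′ on the strand of the gene. Capitals mark 2 motifs, searched on both strands: CTGGGAA, the core of the interleukin-6 response element, and GTTAAT, which reads ATTAAC on the other strand and is part of the sites of hepatocyte nuclear factor 1. Fgg lies at chr3:83007474-83007723 (plus strand), Fgb at chr3:83049864-83050113 (minus strand) and Fga at chr3:83025903-83026152 (plus strand).
Fgg: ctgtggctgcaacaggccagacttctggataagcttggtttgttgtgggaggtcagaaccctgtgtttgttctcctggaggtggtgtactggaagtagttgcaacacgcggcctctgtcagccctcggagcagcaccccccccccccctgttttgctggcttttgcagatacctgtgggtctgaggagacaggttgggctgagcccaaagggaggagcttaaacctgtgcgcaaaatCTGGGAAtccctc
Fgb: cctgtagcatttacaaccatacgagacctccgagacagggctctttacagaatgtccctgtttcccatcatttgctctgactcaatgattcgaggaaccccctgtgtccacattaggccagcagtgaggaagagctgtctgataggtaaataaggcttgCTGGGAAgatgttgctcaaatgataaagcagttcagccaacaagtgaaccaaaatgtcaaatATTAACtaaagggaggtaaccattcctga
Fga: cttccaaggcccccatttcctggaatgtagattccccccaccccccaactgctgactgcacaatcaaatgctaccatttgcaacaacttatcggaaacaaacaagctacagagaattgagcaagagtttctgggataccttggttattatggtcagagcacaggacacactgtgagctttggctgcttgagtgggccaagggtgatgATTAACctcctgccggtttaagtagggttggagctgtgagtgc

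CTGGGAA was found 13 to 7 bases before the start of Fgg and 91 to 85 bases before that of Fgb, and not in the window of Fga. GTTAAT was found, on the opposite strand, 29 to 24 bases before the start of Fgb and 43 to 38 bases before that of Fga, and not in the window of Fgg. The motifs did not overlap each other. CTGGGAA is in 9.10% of 32851 RefSeq promoter windows of this length and GTTAAT in 6.43%. Of 29 clotting and fibrinolysis genes with a promoter entry, 6 held the former and 4 the latter. These matches describe the letters and show no binding.

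The measurement itself rests on 60-base oligonucleotides. Those of Fga and Fgb, and that of F5, which is described further on, are printed 5′ to 3′ as the array files give them, because these chains and that factor differed in how far their ratios moved with the processing. The Fga probe lies at chr3:83117683-83117742 (plus strand) and the Fgb probe at chr3:83128339-83128398 (minus strand) of mm8. The F5 probe is spread over 2189 bases, chr1:166046272-166048460 (plus strand), and so is not contiguous in the genome.
Fga probe: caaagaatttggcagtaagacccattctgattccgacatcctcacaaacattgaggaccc
Fgb probe: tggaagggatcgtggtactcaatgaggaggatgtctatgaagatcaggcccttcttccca
F5 probe: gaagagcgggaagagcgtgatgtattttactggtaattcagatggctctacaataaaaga

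Fgg, the gamma chain, which carries sites for platelet binding and cross-linking, had log2 ratios of 1.09, 1.57, 1.36 and 0.81 on arrays 1 to 4. Its normalised log2 intensity was 11.09, 11.71, 11.89 and 11.11 in the Th3 samples and 10.01, 10.14, 10.52 and 10.30 in the controls. Every Th3 sample thus lay above every control. The gene rose 2.31-fold (log2 1.21, SE 0.113, n = 4, adjusted p = 0.00198). Fgb, the beta chain, rose 2.19-fold (log2 1.13, SE 0.0659, adjusted p = 0.000513), with log2 ratios of 1.42, 1.17, 1.05 and 0.88. Its Th3 levels were 10.15, 10.58, 10.63 and 9.91 and its control levels 8.74, 9.41, 9.58 and 9.03, again with no overlap. Fga, the alpha chain, had smaller log2 ratios of 0.22, 0.41, 0.71 and 0.24. Its Th3 levels of 7.35, 7.91, 7.98 and 7.53 overlapped its control levels of 7.13, 7.50, 7.27 and 7.28, because the Th3 sample of array 1 was below the control of array 2. It rose 1.32-fold (log2 0.40, SE 0.0863, adjusted p = 0.0230). That call was lost without array 3 (log2 0.28, adjusted p = 0.0526) and with pairs as a random block (0.0699). Fga had a log2 ratio of 0.74 when Agilent's processed signals were used.

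The intervals of the 3 chains separate Fga from the others: the 95% interval was 0.19 to 0.60 for Fga, 0.93 to 1.48 for Fgg and 0.97 to 1.29 for Fgb. The difference between chains was not itself tested. The authors' deposited table gave folds of 2.38 for Fgg, 2.33 for Fgb and 1.48 for Fga, with adjusted p of 0.00261, 0.00144 and 0.0335.

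**Figure D2:**
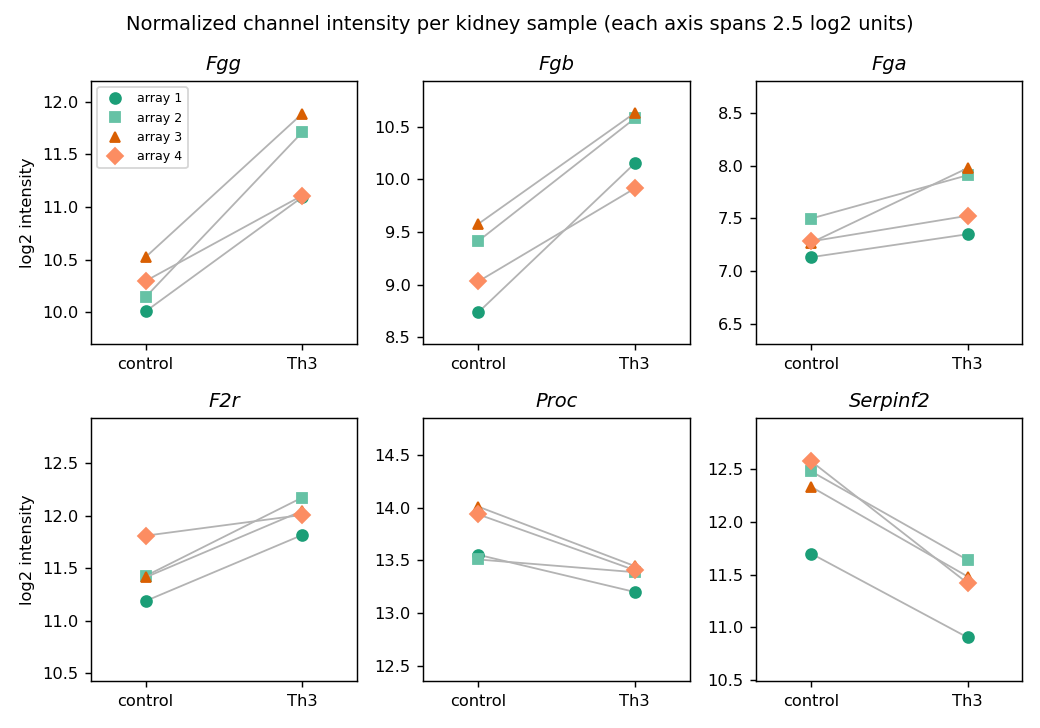
Normalised log2 intensity (vertical axis) of 6 clotting and fibrinolysis genes in the control and the Th3 sample of each array, joined by a line per array; every panel spans the same range on the log2 scale, and levels of different genes are not to be compared. For Fgg, Fgb and F2r all Th3 samples lie above all controls, for Proc and Serpinf2 below them, and for Fga the groups overlap.

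The clot cross-linking enzyme also rose in both its subunits. F13a1, the catalytic A subunit of factor XIII, which platelets and macrophages carry, had log2 ratios of 0.97, 0.55, 0.48 and 0.11. All Th3 levels lay above all control levels, although array 4 separated them least. It rose 1.44-fold (log2 0.53, SE 0.0937, adjusted p = 0.0121). With Agilent's processed signals its log2 ratio was 1.06, and in the authors' deposited ratios, fitted the same way, 0.82. F13b, the carrier B subunit of plasma factor XIII, also rose 1.44-fold (log2 0.52, SE 0.0682, adjusted p = 0.00537). Its log2 ratios were 0.28, 0.22, 0.96 and 0.63, higher on arrays 3 and 4 than on arrays 1 and 2, and its levels overlapped between the groups. With pairs as a random block neither subunit passed (adjusted p = 0.0693 and 0.0596).

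Markers of cells that carry F13a1 went in different directions. Of 13 platelet and megakaryocyte genes listed 9 were tested, and 5 were higher and none lower. Their median log2 ratio was 0.25, and their summed intensity was 1863 to 2327 in Th3 samples and 1428 to 1760 in controls. Such sums, here and below, are weighted towards the brightest genes of a list. Ppbp, a platelet chemokine, had 0.76 and Pf4, platelet factor 4, 0.56, whereas the integrin genes Itga2b (0.02) and Itgb3 (0.04) did not pass. By array Pf4 had 1.29, 0.86, -0.02 and 0.10, so its rise was on arrays 1 and 2. Its levels overlapped between the groups, and its dye term passed in limma's fit (adjusted p = 0.0496). Gp1ba, Gp5, Gp6 and P2ry12 were not tested. Only 2 platelet genes were higher without array 4, without the dye term or with pairs as a random block, and 3 without array 1; Pf4 was lost without the dye term (adjusted p = 0.143). Of 9 tested macrophage and myeloid genes 8 were lower and none higher, with medians of -0.12, -0.29, -0.71 and -0.87 by array; 5 were lower in the fit with no dye term and 2 with pairs as a random block. The part of either cell type in the F13a1 result was not tested.

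At the start of the cascade, tissue factor itself did not pass. F3, which encodes it, had log2 ratios of 0.24, 0.09, -0.08 and -0.42, positive on arrays 1 and 2 and negative on arrays 3 and 4. Its mean was -0.04 with a 95% interval of -0.22 to 0.13 (adjusted p = 0.719), and its other probe, which overlaps the first in sequence, had 0.02. F7, the protease that tissue factor binds, was well above background in 3 of 4 Th3 samples and 3 of 4 controls and was not tested. Tfpi, the inhibitor of the tissue factor complex, rose 1.30-fold by its brightest probe (log2 0.38, SE 0.0659, adjusted p = 0.0116). That probe had log2 ratios of 0.53, 0.38, 0.17 and 0.43, with no overlap of levels between the groups. Its other probes did not show this. The other kept probes, elsewhere in the gene, had log2 ratios of 0.11 and 0.01 (adjusted p = 0.525 and 0.926 in a fit over 26434 probes), and a further 2 were above background in no sample. With the mean of the kept probes Tfpi did not pass (log2 0.17, adjusted p = 0.195). Tfpi2, a related matrix inhibitor, had -0.05, -0.01, 0.67 and 0.28 and did not pass (mean 0.22, adjusted p = 0.0776), but it did without array 4 (0.0248).

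Of the 5 tested genes that make thrombin, 1 was lower and 4 did not pass. F5, the cofactor of factor X, had log2 ratios of -0.33, -0.25, -1.06 and -0.70. Its level was 6.35, 6.69, 6.65 and 6.75 in the Th3 samples and 6.68, 6.94, 7.71 and 7.45 in the controls. The controls of arrays 3 and 4 stood above all other samples, and the groups overlapped at the low end. F5 fell to 66.7% of control (log2 -0.58, SE 0.0726, adjusted p = 0.00464) and did not pass with pairs as a random block (0.0549). The size moved with the processing: the log2 ratio was -1.93 with Agilent's processed signals and -1.13 with the authors' deposited ratios. F2, prothrombin, had 1.31, 0.43, -0.27 and -0.10, so arrays 1 and 2 were positive and arrays 3 and 4 negative. Its mean of 0.34 did not pass (adjusted p = 0.119), though it did with the authors' deposited ratios (log2 0.48, 0.0414). Without array 2, where array 1 alone stood for its dye orientation, the log2 ratio was 0.56. F10, the protease that cuts prothrombin, had its highest log2 ratio on array 1 as well, 0.80, with a mean of 0.24 (adjusted p = 0.176). Without array 2 its log2 ratio was 0.41. F8 and F9, which together activate factor X, had means of -0.02 and -0.07 (adjusted p = 0.807 and 0.503). F11, which activates factor IX, was well above background in 3 of 4 Th3 samples and in no control sample, and was not tested.

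The contact system starts clotting at charged surfaces and releases the vasoactive peptide bradykinin from kininogen. F12, its first protease, had log2 ratios of 0.37, 0.08, 0.25 and 0.38, with no overlap between Th3 levels (6.80, 6.70, 6.72 and 6.72) and control levels (6.43, 6.61, 6.48 and 6.34). It rose 1.21-fold (log2 0.27, SE 0.0673, adjusted p = 0.0336), from a control level that was above background on only 2 of 4 arrays. The call was lost in 6 of 13 alternatives, namely without array 1 (adjusted p = 0.177), array 3 (0.0626) or array 4 (0.0964), with median centring (0.0596), without the dye term (0.0544) and with pairs as a random block (0.0914). The log2 ratio was 1.38 with Agilent's processed signals and 0.64 with the authors' deposited ratios. Klkb1, plasma prekallikrein, had a mean of 0.01 (adjusted p = 0.964), and Kng1, kininogen, had 0.32, 0.28, -0.03 and -0.06 with a mean of 0.13 (adjusted p = 0.127).

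F2r, the main thrombin receptor PAR1 of vessel-wall and mesangial cells, also rose. Its log2 ratios were 0.63, 0.75, 0.63 and 0.20. Its Th3 levels were 11.81, 12.17, 12.04 and 12.01 and its control levels 11.19, 11.43, 11.41 and 11.81. The groups did not overlap, although the Th3 sample of array 1 and the control of array 4 were nearly level. The gene rose 1.46-fold (log2 0.55, SE 0.0803, adjusted p = 0.00700) and was called under all 14 alternatives, at 0.44 to 0.66. F2rl1, the trypsin-activated receptor PAR2, had a mean of 0.09 with a 95% interval of -0.04 to 0.22 (adjusted p = 0.268). It passed with Agilent's processed signals (log2 0.28, 0.0427). F2rl2, the PAR3 gene, was above background in no sample.

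In the protein C system, which switches off factors V and VIII, the zymogen itself was lower. Proc, protein C, had log2 ratios of -0.35, -0.12, -0.56 and -0.53. Its Th3 levels of 13.20, 13.39, 13.44 and 13.41 all lay under its control levels of 13.55, 13.51, 14.01 and 13.94, by a narrow margin on array 2. It fell to 76.2% of control (log2 -0.39, SE 0.0603, adjusted p = 0.00812). With pairs as a random block it did not pass (0.0521). Procr, the endothelial protein C receptor, had 0.15, 0.07, -0.47 and -0.36 and a mean of -0.15 (adjusted p = 0.0913). Thbd, thrombomodulin, which makes thrombin activate protein C, had 0.18, -0.44, 0.03 and 0.07, with a mean of -0.04 (95% interval -0.28 to 0.20, adjusted p = 0.820). Pros1, protein S, the cofactor of activated protein C, did not pass by its brightest probe (mean 0.14, adjusted p = 0.274). Its other probe had 0.51, 0.25, 0.40 and 0.04 and was higher (mean 0.30, adjusted p = 0.0452 in the fit over probes). Without array 4 the brightest probe was also called (0.26, 0.0378). Endothelial markers give the frame for these vessel-wall genes: of 12 tested, 1 was higher, the receptor Flt1 (0.73), none was lower, and the median was 0.08; with pairs as a random block Flt1 did not pass (0.0571). Their summed intensity was 39102 to 48186 in Th3 samples and 37590 to 41467 in controls, and their part in these results was not tested.

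Serpins that inhibit thrombin gave 1 decrease. Serpine2, protease nexin-1, which is bound to cell surfaces, had log2 ratios of 0.15, -0.13, -0.53 and -0.83. Its Th3 levels, between 7.68 and 7.87, overlapped those of the controls (7.72, 7.81, 8.29 and 8.53), and the controls of arrays 3 and 4 were the high samples. It fell to 79.2% of control (log2 -0.34, SE 0.0762, adjusted p = 0.0258). Arrays 1 and 2 had a mean of 0.01, and arrays 3 and 4 one of -0.68. The call was lost in 5 of 14 alternatives, with an adjusted p of 0.0572 with Agilent's processed signals, 0.0709 without array 2, 0.0763 without array 4, 0.205 without the dye term and 0.243 with pairs as a random block. Serpinc1, antithrombin, had 1.58 on array 1 and 0.09, 0.23 and 0.44 on the others. All its Th3 levels were above all control levels, but its mean of 0.59 had a 95% interval of 0.07 to 1.10 and an adjusted p of 0.100. It passed with median centring (log2 0.60, 0.0393). Its log2 ratio was 0.96 without array 2, where array 1 alone stood for its dye orientation, and 0.22 without array 1. Its other probe, from another stretch of the gene, had a mean of 0.09 (adjusted p = 0.284). Serpind1, heparin cofactor II, had a mean of 0.14 (adjusted p = 0.178).

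In the plasminogen system the precursor and 1 activator were higher, and the main inhibitor of plasmin was lower. Plg, plasminogen, had log2 ratios of 0.70, 0.12, 0.37 and 0.51 and no overlap of levels between groups. It rose 1.34-fold (log2 0.43, SE 0.0961, adjusted p = 0.0255), with the control above background on 3 of 4 arrays. Its other probe, which overlaps no base of the first, had a mean of 0.39 (adjusted p = 0.0458). The call was lost without array 3 (0.0678), without array 4 (0.0861) and with pairs as a random block (0.0688), and the log2 ratio was 1.57 with Agilent's processed signals. Plat, tissue plasminogen activator, had 0.51, 0.52, 0.49 and -0.11, so 3 arrays were alike and array 4 was not. It rose 1.28-fold (log2 0.35, SE 0.0972, adjusted p = 0.0472), a call that was lost in 7 of 14 alternatives. The adjusted p was 0.0727 without array 3 (log2 0.20), 0.149 with pairs as a random block and 0.0998 without the dye term. It was 0.0803 with Agilent's processed signals, 0.0747 with no filter on dim probes, 0.0654 with the mean of its probes and 0.0529 with the authors' deposited ratios. Its other probes had means of 0.20 (adjusted p = 0.0428) and 0.17 (0.207). Plau, urokinase, the activator that tubules release into urine, had -0.13, 0.32, 0.01 and -0.21 and a mean of -0.00 (95% interval -0.21 to 0.20, adjusted p = 0.989). Plaur, its receptor, had a mean of 0.04 (adjusted p = 0.587).

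Serpinf2, alpha-2-antiplasmin, which inactivates plasmin and is made by hepatocytes and by convoluted tubules of the mouse kidney, had the largest decrease of the 33 genes. Its log2 ratios were -0.80, -0.84, -0.85 and -1.16. Its Th3 levels were 10.90, 11.64, 11.48 and 11.42, and its control levels 11.70, 12.48, 12.33 and 12.58. No Th3 sample reached the lowest control. It fell to 53.1% of control (log2 -0.91, SE 0.0665, adjusted p = 0.00105) and was called in all 14 alternatives, between -0.99 and -0.84. In the authors' deposited table it was 1.91-fold lower, with an adjusted p of 0.00165. Proximal tubule markers were lower beside it: of 7 tested, 5 were lower and none higher, with a median of -0.21. Slc22a6, the organic anion transporter of that segment, had -0.80. The count of 5 was 3 without any 1 of the arrays, 3 with median centring, with Agilent's processed signals or with the authors' deposited ratios, 2 without the dye term and 1 with pairs as a random block. The summed intensity of the 7 was 154575 to 193977 in Th3 samples and 199621 to 218246 in controls. Lrp2, the brightest of them and so the largest part of that sum, did not pass (log2 -0.09, adjusted p = 0.553). The part of the proximal tubule genes in the Serpinf2 result was not tested.

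The vitamin K enzymes, which prepare prothrombin, factors VII, IX and X and proteins C and S for calcium binding, did not pass. Vkorc1, the reductase, had a mean of 0.10 (95% interval -0.04 to 0.23, adjusted p = 0.256). Ggcx, the carboxylase, had -0.45, -0.28, 0.15 and 0.01, with a mean of -0.14 (adjusted p = 0.142). Anxa5, annexin A5, which covers the phospholipid that the cascade needs, had -0.03, -0.08, -0.30 and -0.85. It missed the threshold (mean -0.32, adjusted p = 0.0533), and passed when array 1 (0.0401) or array 3 (0.0149) was left out, or when variances were fitted robustly with a trend on intensity (0.0448). Over the 19 genes that did not pass, means ran from -0.32 for Anxa5 to 0.59 for Serpinc1, 14 of them within 0.2 of 0.

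**Figure D3:**
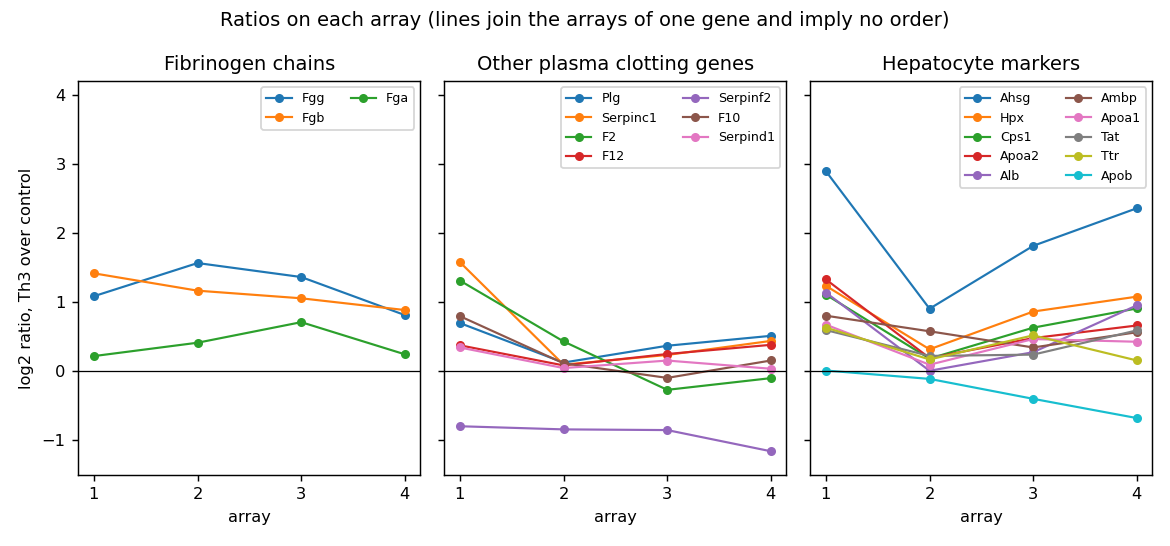
Log2 ratio of Th3 over control (vertical axis) on each array (horizontal axis) for the fibrinogen chains, for other clotting genes of plasma proteins, and for the 10 tested hepatocyte markers; lines only join the arrays of a gene. Ahsg, Fgb, Plg, Serpinc1, Serpind1, F2 and F10 are highest on array 1. Fgg is highest on array 2, where most hepatocyte markers are lowest, and Fga on array 3.

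Since the liver is the main source of most of these plasma proteins, 11 other hepatocyte genes were examined on the same arrays, and 10 could be tested. Of these, 8 were higher, 1 was lower and 1 did not pass, with a median log2 ratio of 0.58. Their summed intensity was 9374 to 11510 in the Th3 samples and 5027 to 8907 in the controls. The highest were Ahsg, fetuin-A, at 1.99 (adjusted p = 0.00696), Hpx, the haem carrier hemopexin, at 0.87 (0.00913), and Cps1, the urea cycle enzyme, at 0.71 (0.0182). Cps1 was not called without array 3 (0.0533), without array 4 (0.0713) or with pairs as a random block (0.0535). Alb, albumin, the most typical of them, was above background in every sample and did not pass (log2 ratios 1.14, 0.01, 0.27 and 0.95, mean 0.59, adjusted p = 0.0712). Apob, the protein of low density lipoprotein, was lower (-0.30). That call was lost in 6 alternatives, as without the dye term (adjusted p = 0.149) and with pairs as a random block (0.185). Serpina1a was not tested. Cps1 and Apoa1, whose control was above background on 1 and 2 of 4 arrays, were kept through the Th3 channel only; of the 8 genes above background in both channels 6 were higher. The count of 8 was 6 without array 1, 9 without array 2, 4 without array 3 and 4 without array 4. With pairs as a random block it was 3, namely Ahsg, Hpx and Ambp.

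By array, the hepatocyte markers had medians of 0.96, 0.19, 0.47 and 0.63, highest on array 1 and lowest on array 2. Other genes of plasma proteins were divided: F2 and F10 were lowest on array 3, and Serpind1 and Serpinf2 on array 4. Serpinc1, Plg and F12 had their lowest ratio on array 2, but so did F13b, Thbd, Vkorc1 and F2rl1. On that array the markers ran from -0.11 for Apob and 0.01 for Alb to 0.58 for Ambp and 0.90 for Ahsg. Fgg had its highest ratio there, 1.57, and Fgb had 1.17. The highest ratio of Fgb was 1.42, on array 1, where the hepatocyte median was also highest. Fga was lower on arrays 1 and 4 than on arrays 2 and 3. The part of liver-type RNA in the results of Plg, F12, Fga, Fgg and Fgb was not tested.

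Markers of tubular injury and of fat differed between the same samples. Of 5 injury genes tested, 1 was higher, 1 was lower and 3 did not pass, with a median of 0.16 and medians by array of 0.71, 0.27, -0.14 and -0.32. Their summed intensity was 1198 to 1447 in Th3 samples and 1083 to 1781 in controls. Lcn2, the secreted injury protein lipocalin-2, had 0.74 (adjusted p = 0.0294), a call lost in 5 alternatives, as without array 4 (0.104) and with pairs as a random block (0.0806). Vcam1, an adhesion molecule, had -0.70 (0.00154), and Havcr1, kidney injury molecule 1, did not pass (0.33, 0.0585), though it did without array 2 (0.0200) or array 4 (0.0166). Of 6 fat genes tested, 1 was higher, 2 were lower and 3 did not pass. Adipoq, adiponectin, had 1.00 (0.0408), and 0.56 without array 3. Its call was lost in 5 alternatives, as with pairs as a random block (0.158) and without the dye term (0.110). Ucp1 and Cidea, of brown fat, had -3.40 (0.00156) and -1.11 (0.00595), and Cidea was lost with that block (0.0916) and without the dye term (0.0734). The fat genes had medians by array of 0.40, 0.98, 0.28 and -0.91. The summed intensity of the fat genes was 74433 to 99208 in Th3 samples and 34478 to 131078 in controls. The part of injured tubule or of fat in the clotting gene results was not tested.

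The rest of the pathway was taken from a list of 25 further genes, of which 20 were tested: 3 were higher, 2 lower and 15 did not pass, a share of 25% called, near the 21.5% of all genes. The median was -0.02. Apoh, the plasma phospholipid-binding beta-2-glycoprotein I, rose 2.12-fold (log2 1.09, SE 0.224, adjusted p = 0.0191), with ratios of 2.04, 0.47, 0.85 and 0.98 that were highest on array 1 and lowest on array 2. Its call was lost without array 3 (0.0717), without array 4 (0.0701), with an intensity trend and robust variance fit (0.0646) and with pairs as a random block (0.0579); without array 1 the log2 ratio was 0.69. Serping1, the C1 inhibitor that restrains factor XII and kallikrein, had 0.43 (adjusted p = 0.00818), and Entpd1, the vessel-wall enzyme that removes ADP, 0.33 (0.0314), which was lost without array 1 (0.125), array 3 (0.105) or array 4 (0.0678) and with pairs as a random block (0.0838). Cpb2, the fibrinolysis inhibitor TAFI, fell by 0.50 on the log2 scale (SE 0.0702, adjusted p = 0.00641), with ratios of -0.85, -0.52, -0.36 and -0.27 and no overlap of levels. Tgm2, tissue transglutaminase, a relative of F13a1, had -0.32 (adjusted p = 0.00880), a call lost in the fits with no dye term (0.0562), with median centring (0.0655), with the mean of its probes (0.0875) or with pairs as a random block (0.0754). Serpinb2, Serpina5, A2m, F2rl3 and Adamts13 were not tested. Serpinf2 and Cpb2, which both restrain fibrinolysis, were thus lower.

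**Figure D4:**
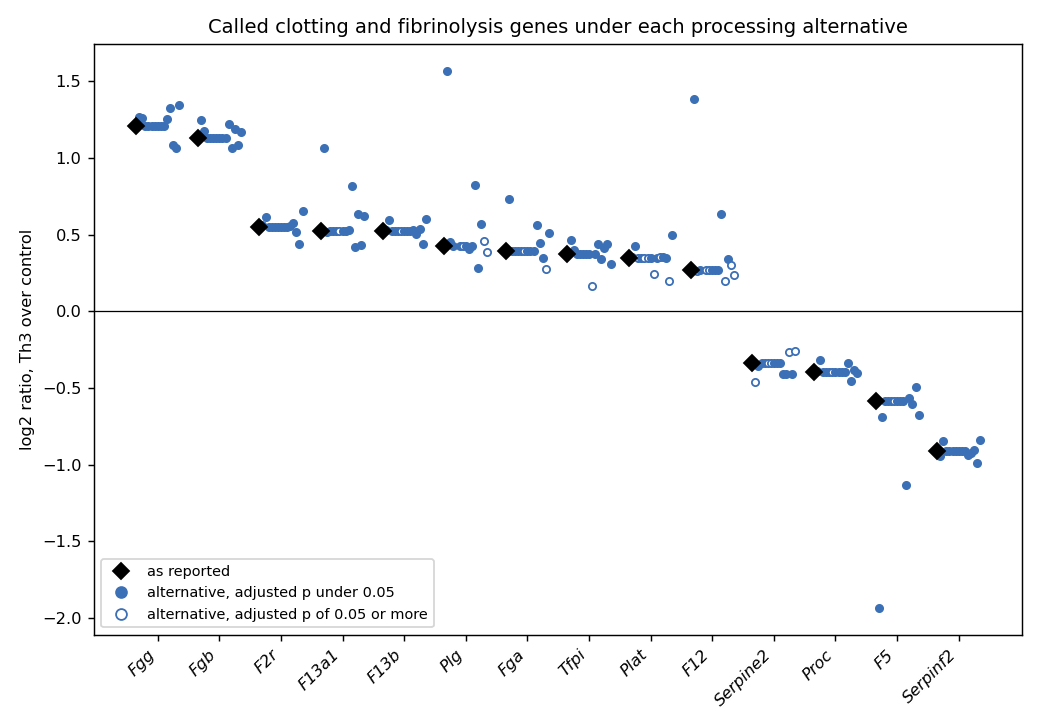
Log2 ratio of Th3 over control (vertical axis) of the 14 called clotting and fibrinolysis genes as reported (black diamond) and under each processing alternative (circle, filled where the adjusted p was under 0.05). Fgg, Fgb, F2r and Serpinf2 have only filled circles; F5, Plg, F12, F13a1 and Fga have values farther from 0, up to 1.57 for Plg and down to -1.93 for F5.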

How the data were processed

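RNA of 4 Th3 and 4 control kidney samples was hybridised in pairs to 4 two-colour arrays. The scanner files hold spot and background intensities, not normalized, from Agilent Feature Extraction 9.5.3.1 (array design 014868, positions on mouse build mm8), per the file headers. They also hold processed intensities and a log10 ratio of Cy5 over Cy3, per the file headers, used to check each ratio's direction. The authors deposited a table with a log2 ratio per array, a signed fold, which is a score by a rule not given in the sources used here, and an adjusted p-value of an unnamed test.

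Signals were processed with R 4.3.3, data.table (version 1.17.8) and limma 3.58.1: normexp (offset 50), loess (span 0.3, 4 iterations), without control spots, and with outlier spots as missing values. Probes well above background in all 4 samples of either group were kept if they had values on at least 3 arrays (26434 of 41174). Genes were named through a RefSeq gene list (GRCm38.p6), and the brightest kept probe stood for each of 17628 genes. lmFit and eBayes were run with a dye term (2 residual and 4.52 prior degrees of freedom), with Benjamini-Hochberg adjustment over all genes, and a separate fit over all kept probes served the further probes of a gene. The scripts were tested on simulated data. Levels are log2 intensities after loess and Aquantile scaling. All listed members are accounted for: values on every array are given for fibrinogen chains and for called genes, with their other kept probes, and from the other lists up to 3 called genes with the largest ratio. A few further genes, Itga2b, Itgb3, Alb, Havcr1, Apob, Entpd1, Tgm2 and the uncalled members with array values, were named after their values were seen. A listed gene of the wider pathway is not reported here. The members and the lists were chosen with earlier results of these data known. Alternatives changed background correction, normalization, probe filter, dye term, variance model, probe choice, outlier spots, source of ratios or left out an array. Neither slide nor scan date could be examined as a batch, since the arrays had the same. The number of arrays limits the precision.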

Additional observations from a re-analysis of the deposited data

Results flagged for a closer look

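Among the 33 tested genes, each with 4 log2 ratios, 2 had a single array far from the others, measured as its gap to the nearest other array over the whole range (Dixon's test at the 95% level). Chance alone gives such a value in about 1 of 20 groups. Plat had -0.11 on array 4, with a gap of 0.959 of its range, while the other arrays had 0.51, 0.52 and 0.49. Serpinf2 had -1.16 on array 4, with a gap of 0.847 of its range, on the same side of 0 as the other arrays.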

How the results depend on the processing

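Fgg, Fgb, F2r and Serpinf2 were called in all 14 alternatives; the losses of the other 10 genes are given with their adjusted p values above. Pairs of arrays as a random block left 4 clotting genes higher and 1 lower, and 645 genes of all higher and 554 lower, against 1927 and 1866. Without the dye term 1102 were higher and 888 lower. Median centring gave 1931 higher and 1145 lower, which moved the split between directions. Leaving out 1 array gave 6 to 13 clotting genes higher, with 6 without array 3, and 3 to 5 lower, and 1351 to 1630 of all genes higher and 1285 to 1598 lower. Some genes that did not pass changed sign. With median centring Klkb1 had -0.017, Plau 0.069 and Thbd 0.023. Over the fits that left out 1 array the log2 ratio ran from -0.056 to 0.067 for Klkb1, from -0.114 to 0.110 for Plau, from -0.196 to 0.118 for Thbd, from -0.127 to 0.043 for F3, from -0.053 to 0.0083 for F8 and from -0.143 to 0.0051 for F9. The cause of these changes was not tested. Every fit kept the pairing, because each array's ratio already pairs a Th3 with a control sample, which leaves 1 group of ratios. Signal near background limits F12 and Plg, whose control channel was above background on 2 and 3 of the 4 arrays. F5 was above background on every array, but its Th3 signal was also low. Its mean Th3 level of 6.61 was near the mean control levels of F12 (6.46) and Plg (6.58), which limits the size of its decrease. Fga and F13a1 were above background on every array, at mean control levels of 7.30 and 7.37. Their log2 ratios were 0.40 and 0.53 as reported and 0.74 and 1.06 with Agilent's processed signals, so the size of their increases is also uncertain.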
